A study of Homo sapiens and Mus musculus with 6 samples.

Results

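The data are promoter interactions from Promoter Capture Hi-C (CHi-C), which enriches a Hi-C library for HindIII fragments carrying annotated promoters, and the regions described here are the baited fragments named for microRNA genes alone. GM12878, a human B-lymphoblastoid cell line, was assayed in 3 biological replicates, and J1 mouse embryonic stem cells (mESCs) of strain 129S4/SvJae in 2. The mESCs were expanded on irradiated embryonic fibroblasts, which were depleted by short passages before fixation, and 1 Hi-C library without capture was made from the same cell type. Both are unmodified cultures of a single cell line, with no treatment and no engineered allele, so the cell types differ in species, line and culture at once and these cannot be told apart.

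A bait was kept when every gene symbol in its name began with MIR and a digit, or with MIRLET, in any case. This rule used names only and no measured value. It kept 176 of the 15389 baits with a call in GM12878, with 735 of 92929 calls, and 205 of 16265 baits in mESCs, with 1282 of 101841 calls. A call is a bait and an other end whose read pairs exceeded the background expected by CHiCAGO. Its score, a soft-thresholded negative logarithm of a weighted p-value, is at least 5 in both lists. The authors called each cell type on its replicates jointly, so each has a single set of calls, no replicate error can be given and no difference was tested. Shares are given with Wilson 95% intervals and medians with exact binomial 95% intervals, and both cover counting error only. Baits without a call are not listed, so numbers of calls per bait are over baits with at least 1 call. A pair of baits listed from both ends counts as a call of each bait, so the totals of calls exceed the numbers of distinct pairs. Read numbers are as listed, combined by the authors over replicates, and are not raw counts.

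MicroRNAs are short RNAs that guide Argonaute proteins to messenger RNAs. Most are transcribed by RNA polymerase II as long primary transcripts, from which DROSHA and DGCR8 cut a hairpin that DICER1 trims to the mature strand. Bases 2 to 8 of that strand, the seed, pair with the target. Many hairpins lie inside a host gene and are transcribed with it, and the annotated start of a microRNA symbol is the start of the hairpin, whereas the primary transcript can begin far away.

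The annotation bore on the label in this way. The 176 human baits carried 219 distinct microRNA symbols, with several symbols on 20 baits, and the 205 mouse baits carried 205. Where a bait carried several hairpins of its name, only that with the lowest coordinate was placed, here and for host genes below. The hairpin lay in an intron of a host gene on 105 human baits and in an exon of one on 27, between genes on 17, and antisense to a gene on 15. On the other 12 human baits no hairpin of that name was annotated, and 9 human baits carried a host transcript name ending in HG, such as MIR155HG. In mESCs the hairpin lay in an intron on 96 baits, in an exon on 30, between genes on 66 and antisense on 13. The name did not always mean that the microRNA was the only gene starting on the fragment. An annotated start of a protein-coding transcript also lay on 7 of the human baits and on 37 of the mouse baits, among them Hoxc9 with Mir196a-2, Hoxa9 with Mir196b, Hoxd3 and Hoxd4 with Mir10b, Abcf1 with Mir877 and Igf2 with Mir483. The main mESC shares are therefore also given for the 168 baits with no such start.

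The mature sequences below, from RefSeq (GRCh38.p14), belong to the baits on which the GM12878 results turn, and each was found base for base on its bait in hg19. Capitals mark the seed. The miR-155 strand lies at chr21:26946295-26946318 (plus strand) on a bait with 21 calls, miR-193b at chr16:14397874-14397895 (plus) on a bait with 38, and miR-193a at chr17:29887069-29887090 (plus) on a bait with 8. The miR-342 strand lies at chr14:100576052-100576074 (plus) and miR-7 at chr9:86584726-86584749 (minus), each on a bait with 15 calls, and miR-148b at chr12:54731062-54731083 (plus) on a bait with 13.
miR-155-5p: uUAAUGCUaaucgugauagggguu
miR-193b-3p: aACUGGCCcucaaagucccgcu
miR-193a-3p: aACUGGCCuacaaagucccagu
miR-342-3p: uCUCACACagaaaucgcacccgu
miR-7-5p: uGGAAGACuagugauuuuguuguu
miR-148b-3p: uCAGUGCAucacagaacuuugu
The strands of miR-193a and miR-193b share the seed ACUGGCC, and their baits lie on chromosomes 17 and 16.

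For mESCs, the letters of the human RefSeq strands were searched on the mouse baits in mm9, and those shown matched over their whole length. They belong to the 3 most called baits, to a further miR-196a bait with the same seed, and to baits of the lists described later. The miR-196a strand lies at chr15:102803796-102803817 (plus) on the Mir196a-2 bait with 70 calls and at chr11:96126501-96126522 (plus) on the Mir196a-1 bait with 15, and miR-196b at chr6:52180128-52180149 (minus) on a bait with 55. The miR-375 strand lies at chr1:74947235-74947256 (minus) on a bait with 51 calls and miR-23b at chr13:63401837-63401859 (plus) on a bait with 17. The let-7i strand lies at chr10:122422754-122422775 (minus) on a bait with 12 calls and miR-302b at chr3:127248193-127248215 (plus) on a bait with 9.
miR-196a-5p: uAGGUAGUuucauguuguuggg
miR-196b-5p: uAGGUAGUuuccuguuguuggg
miR-375-3p: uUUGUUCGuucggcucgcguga
miR-23b-3p: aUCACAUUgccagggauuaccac
let-7i-5p: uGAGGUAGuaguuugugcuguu
miR-302b-3p: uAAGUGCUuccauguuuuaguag
A mature strand was found on the bait for 195 of 207 human symbols and, with human letters, for 86 of 197 mouse symbols. These are symbols of the 170 of 176 human and 198 of 205 mouse baits whose sequence was read.

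In GM12878, baits named for microRNAs alone had fewer calls than other baits, and in mESCs they had about as many. The median was 2 calls per bait in GM12878 (interval 2 to 3, n = 176) and 3 over the 15213 other baits (interval 3 to 3), and the means were 4.18 and 6.06. In mESCs the median was 3 (interval 3 to 4, n = 205) and also 3 over 16060 other baits, with means of 6.25 and 6.26. The lower GM12878 median held for the name rule used here. When other symbols were allowed beside a microRNA symbol, it was 3 (interval 3 to 4, n = 425), as over other baits. That alternative kept the same 205 baits in mESCs, where a bait has 1 name. At least 10 calls were made for 21 of 176 baits in GM12878 (11.9%, interval 7.94 to 17.6), where 17.6% of all baits had as many, and for 41 of 205 in mESCs (20%, interval 15.1 to 26), where 18.9% of all baits did. A single call was made for 57 baits in GM12878 (32.4%, interval 25.9 to 39.6) and 52 in mESCs (25.4%, interval 19.9 to 31.7), beside 25.1% and 23.4% of all baits.

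The fragments differed in size as well as in calls. The median microRNA bait was 4.93 kb long in GM12878 and 5.04 kb in mESCs, whereas other baits had medians of 6.96 and 5.75 kb. The part of fragment length in the number of calls was not tested. The 5 most called microRNA baits of each cell type held 17.6% of the microRNA calls in GM12878 and 19% in mESCs. MicroRNA baits with at least 10 cis-chromosomal calls held 332 of 735 such calls in GM12878 and 768 of 1276 in mESCs. Other baits with as many held 51952 of 91906 and 57394 of 99986, so calls gathered on much-called baits in both groups. In mESCs the 37 baits that also carried a coding start had a median of 6 calls (interval 3 to 10), and the 168 without one had a median of 3 (interval 2 to 4) and a mean of 5.21.

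**Figure D1:**
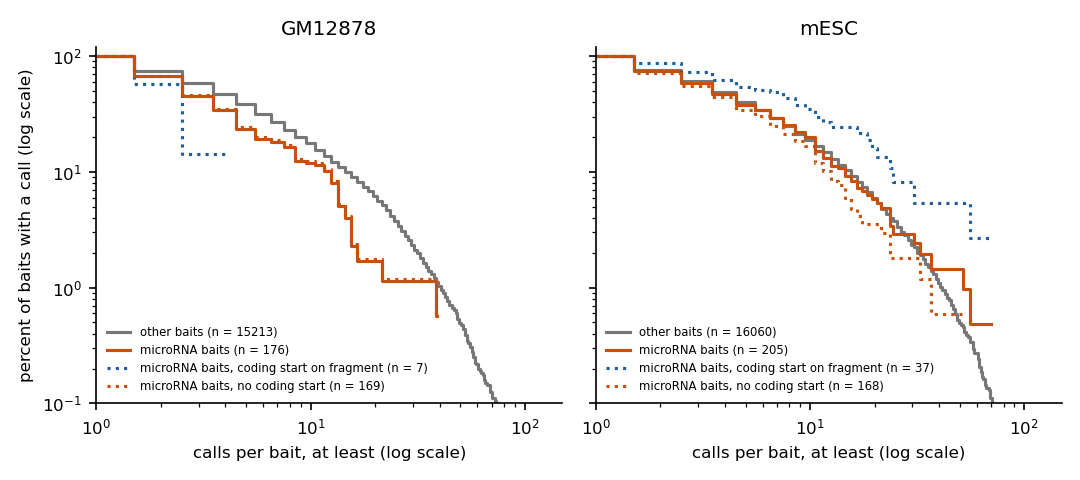
Percentage of baits (vertical, log scale) with at least a given number of calls (horizontal, log scale) in GM12878 and mESCs, for microRNA baits, other baits and microRNA baits with and without an annotated coding start on the fragment. The most called microRNA bait had 39 calls in GM12878 and 70 in mESCs, and the most called other bait 113 and 131.

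The most called microRNA bait in GM12878 carried the start of MIR155HG, the host transcript of miR-155, a microRNA known for its role in activated B cells. This bait, of 13.1 kb on chromosome 21 from 26926437 to 26939577 of hg19, had 39 calls, all to lower coordinates. They spanned 9.11 to 383 kb, with a median of 131 kb, on 11 to 90 reads. A neighbouring bait of the same name, from 26945874 to 26948352, carries the hairpin and had 21 calls, 20 of them to lower coordinates and 1, with a score of 5.33, to the bait of ATP5J and GABPA. The highest score of any microRNA bait in GM12878 was 30.89, for the call of the start bait to chr21:26797667-26799364, 134 kb away, on 54 reads. The next scores, 25.94 and 24.15, were of the same bait and reached fragments 141 and 138 kb away.

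Both MIR155HG baits, whose midpoints lie 14.1 kb apart, shared part of their other ends. These numbered 17, which is 43.6% of those of the start bait and 81% of those of the hairpin bait. Among the shared ends, 9 adjacent fragments formed a block of 17.9 kb from 26786129 to 26803998 that overlaps no annotated coding gene. From the start bait, calls in the block lay 131 to 146 kb away and had 20 to 54 reads and scores from 7.2 to 30.9. From the hairpin bait the same fragments lay 145 to 160.2 kb away and had 10 to 25 reads and scores from 5.19 to 20.2. Read counts in the block had a median of 32 from the start bait and 17 from the hairpin bait. These counts belong to fragments of unequal length at unequal distances.

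The sequence at the MIR155HG start is shown because the 39 calls were made from its fragment. RefSeq's window from 250 bases before to 50 bases after the start was found once on that bait, at chr21:26934207-26934506 of hg19 (plus strand), and capitals mark the match to TGANTCA, the binding motif of AP-1 factors.
MIR155HG start: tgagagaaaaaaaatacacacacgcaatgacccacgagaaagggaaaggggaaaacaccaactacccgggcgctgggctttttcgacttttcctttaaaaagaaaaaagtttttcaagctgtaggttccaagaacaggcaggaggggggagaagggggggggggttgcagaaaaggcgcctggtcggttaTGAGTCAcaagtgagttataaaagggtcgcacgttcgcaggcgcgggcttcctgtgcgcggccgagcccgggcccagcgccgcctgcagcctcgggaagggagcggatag
On either strand, TGANTCA occurs in 7.71% of 35116 such RefSeq windows. The E-box CACGTG, held by 7.26% of windows, and the HindIII site AAGCTT, held by 5.84%, are not in this one.

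MIR193B had 38 calls in GM12878, 5 to lower and 33 to higher coordinates, at 12.9 to 385 kb. Of these, 25 reached fragments that overlap PARN, which encodes a poly(A)-specific ribonuclease, and 10 adjacent fragments 182 to 212 kb away formed the longest run. The highest score on PARN, 17.98, was on 22 reads at 195 kb. On the other side, 3 calls reached ERCC4, a nuclease gene of DNA repair, at scores up to 12.33. The next fragment carries MIR365A, which is transcribed with MIR193B, and had 3 calls, to baits of ERCC4 (score 17.27) and PARN (7.63) and within PARN (5.48). Each of these 3 other ends was also called from MIR193B, where the ERCC4 bait scored 6.85.

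**Figure D2:**
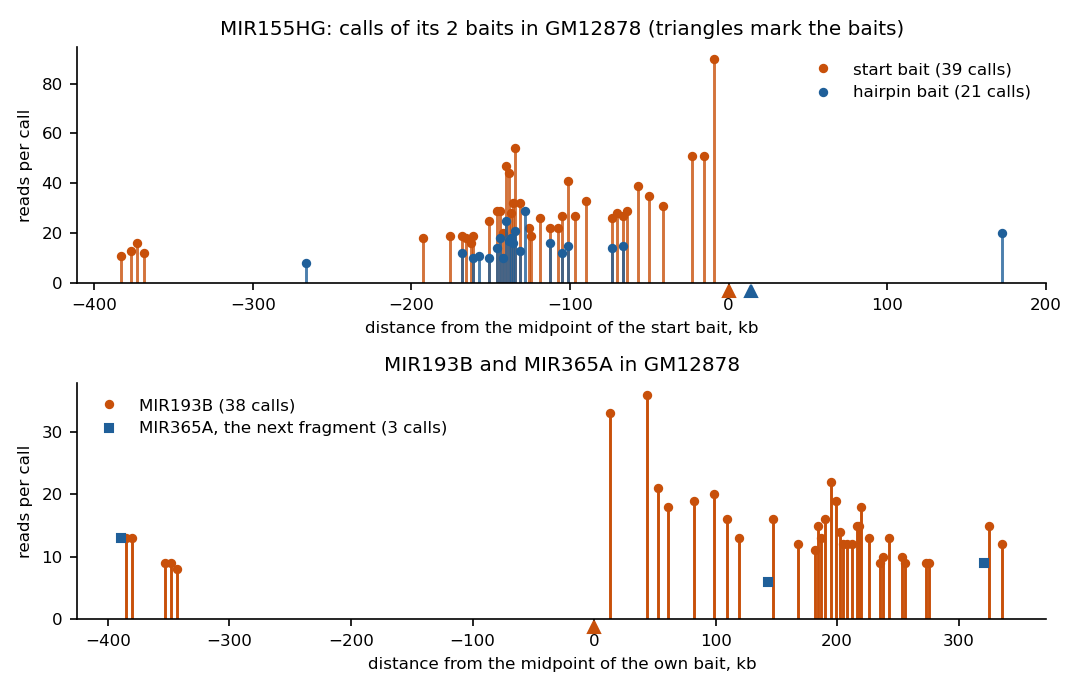
Reads per call (vertical, as listed) against the signed distance of the other end (horizontal, kb) in GM12878, one point per call. For the start and hairpin baits of MIR155HG, distances are from the midpoint of the start bait. For MIR193B and MIR365A they are from the midpoint of the own bait. The start bait of MIR155HG had its 39 calls to lower coordinates, and 33 of the 38 calls of MIR193B lay to higher coordinates.

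Other much-called GM12878 baits looked into or around genes of varied function. MIR1471 had 16 calls, all to higher coordinates and at least 255 kb away, among them a call to the bait of ECEL1 at 601 kb with a score of 9.87. MIR151B and MIR342 share a bait with 15 calls, of which 14 lay to lower coordinates and the highest-scoring, 15.51 on 32 reads at 123 kb, fell within EVL, the cytoskeletal regulator that carries miR-342. The bait of MIR130A had 13 calls, all to lower coordinates, and 6 of them reached baits, including those of SERPING1, the complement C1 inhibitor (39 reads, score 8.51), and of SSRP1, a histone chaperone subunit (16 reads, score 8.61). MIR759 also had 15 calls, and MIR1266 and MIR766 had 14 each. All calls lay on a single side of the bait for 6 of the 21 baits with at least 10 calls, and for 21.2% of other baits with as many.

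High scores also stood on baits with few calls. MIR548H2 had 3 calls, and that to CLEC16A, a gene of endosomal trafficking, had a score of 22.6 on 24 reads at 357 kb, while the other calls reached RMI2 (score 8.85) and DEXI (score 7.22), the last fragment also overlapping CIITA, the regulator of MHC class II genes. MIR194-1 and MIR215 share a bait with 7 calls, all of them to baits, and its best call had a score of 21.78 on 24 reads at 128 kb and lay within EPRS1. A score of at least 20 was reached by 4 of the 176 baits (2.27%, interval 0.887 to 5.7), beside 6.05% of all baits. The highest read counts belonged to short distances, with 146 reads from MIR370 to the bait at RTL1, 7.67 kb away, and 130 reads from MIR921 to a fragment in FAM78B 3.2 kb away.

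In mESCs the 2 most called microRNA baits, Mir196a-2 and Mir196b, lay in Hox clusters, which encode the transcription factors that pattern the body axis and carry the miR-196 and miR-10 genes. Mir196a-2, on chromosome 15 from 102803233 to 102811254 of mm9, had 70 calls on 3 to 200 reads. The best, to Hoxc5 at 38.2 kb, had a score of 65.17 on 200 reads, the highest score of any microRNA bait. Of its other ends, 10 carried a Hox coding start. A further group of 8 fragments, 186 to 207 kb away, had scores from 8.01 to 45.21 and carried no coding start. Calls over 1 Mb reached Wnt10b, a signalling ligand gene 4.2 Mb away (12 reads, score 26.26), Wnt1 (score 14.63), Ddn (10.29) and Dnajc22 (9.97). This fragment also carries a start of Hoxc9, so calls made from Hoxc9 and from Mir196a-2 cannot be told apart.

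Mir196b, on chromosome 6 beside Hoxa9, had 55 calls on a fragment of 1.8 kb. Of these, 41 lay within 100 kb, none between 100 kb and 1 Mb, and 14 beyond 1 Mb. Near calls joined it to Hoxa11 (233 reads, score 33.4), Hoxa6 (209 reads, score 33.07) and Evx1, a homeobox gene next to the cluster (91 reads, score 36.85), and 14 of its other ends carried a Hox coding start. Of the 14 distant calls, 4 reached a fragment with a coding start. Its best score, 44.7 on 11 reads, was to a fragment 31.5 Mb away, and the 3 fragments that follow it had scores of 25.37, 22.85 and 10.9, the last at the start of the homeobox gene Vax2. The bait at Dlx6, 45.4 Mb away, had a score of 21.56 on 7 reads, that of Fezf1, 29 Mb away, 6.07 on 4 reads, and that of Zfp467 25.09 on 13 reads. A group of fragments 1.02 to 1.06 Mb away had scores up to 31.69 and overlapped no coding gene.

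The other miR-196 and miR-10 baits had fewer calls. Mir196a-1 in the Hoxb cluster had 15, of which 14 lay within 100 kb, with 58 reads to Hoxb2. Mir10b in the Hoxd cluster had 24, the best to Hoxd13 (80 reads, score 17.02), and also called Dlx1 at 3.19 Mb (score 7.52) and Lmx1b at 41.1 Mb (score 7.4). Mir196a-2 further had calls to Hoxb fragments on chromosome 11, on 4 reads (score 8.7) and 3 reads (score 5.27), so that 2 Hox clusters that each carry a miR-196a hairpin were joined by calls on few reads.

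Mir375, a microRNA known from endocrine cells, lies between genes on chromosome 1, with no coding start on its fragment, and had 51 calls. Of its other ends, 13 carried a coding start, and the 4 with the highest scores were those of the ligand gene Wnt6 (65 reads, score 33.58), Wnt10a (36 reads, score 16.08), the transcription factor gene Fev (179 reads, score 20.22) and the hedgehog ligand gene Ihh (57 reads, score 18.39). The others included Sgpp2 (score 10.62), Speg (8.18) and Ptprn (6.96). A call to Pax3, a transcription factor gene 3.25 Mb away, had a score of 13.68 on 8 reads, and 7 calls in all lay from 3.24 to 3.36 Mb away, on 5 to 8 reads. Its calls lay on both sides, 31 to higher and 20 to lower coordinates.

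Mir150, known from mature lymphocytes, had 36 calls in a gene-dense region of chromosome 7, and none exceeded 1 Mb. It reached 16 baits, and 22 of its other ends carried a coding start, among them Cpt1c (30 reads, score 14.47), Scaf1 (35 reads, score 12.48) and Rcn3 (59 reads, score 11.22). It was also the most reached, with 26 calls from other baits. Mir7b had 32 calls from a fragment of 0.713 kb, 20 of them within 100 kb. Mir877, inside Abcf1, had 30 calls, of which the highest score, 35.97, was on 7 reads and joined it to a fragment on chromosome 15. Mir130a and Mir1936 had 23 calls each. Mir1941, with a start of the keratin gene Krt80 on its fragment, had 23 calls, all to higher coordinates and all but 1 over 100 kb away. The baits with at least 10 calls that had every call on a single side numbered 7 of 41, beside 10.1% of other baits with as many.

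**Figure D3:**
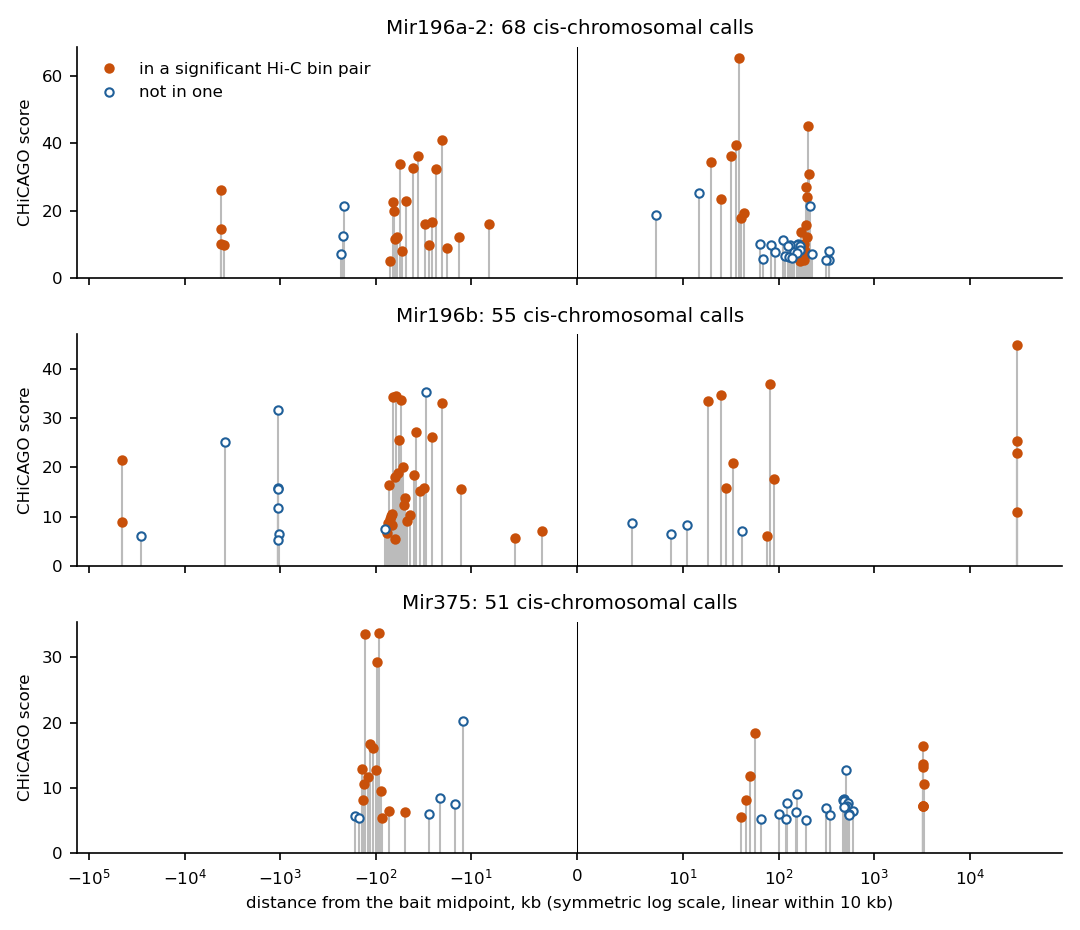
Score per call (vertical) against the signed distance of the other end from the bait (horizontal, kb, linear near 0 and logarithmic beyond) for Mir196a-2, Mir196b and Mir375 in mESCs, one point per cis-chromosomal call, filled where the call lay in a significant Hi-C bin pair. Mir196b had no call between 100 kb and 1 Mb, and the 7 calls of Mir375 over 3 Mb were all filled.

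Cis-chromosomal calls of microRNA baits spanned a median of 167 kb in GM12878 (interval 154 to 184), beside 174 kb for other baits (interval 172 to 175), and of 108 kb in mESCs (interval 98.6 to 116), beside 139 kb (interval 138 to 141). Calls under 20 kb were more frequent. Under 20 kb lay 10.6% of the microRNA calls (interval 8.59 to 13) and 6.67% of other calls in GM12878, and 17.7% (interval 15.7 to 19.9) and 11.5% in mESCs, where the 168 baits with no coding start had 20.2% (interval 17.7 to 23). From 20 to 100 kb, GM12878 went the other way, with 18.4% of microRNA calls (interval 15.7 to 21.3) and 23.2% of other calls. In mESCs these shares were 29.9% (interval 27.4 to 32.4) and 27.4%. Median listed reads were 14 and 16 in GM12878 and 15 and 13 in mESCs, for microRNA and other calls respectively, and median scores were 6.56 and 6.62, and 6.74 and 6.62.

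Calls over 1 Mb or between chromosomes were rare for microRNA baits in GM12878 and as frequent as for other baits in mESCs. In GM12878 they were 3 of 735 calls (0.408%, interval 0.139 to 1.19) beside 1.96% of other calls (interval 1.87 to 2.05), and were made by 2 baits (1.14%, interval 0.312 to 4.05) where 3.77% of all baits made any. The share was 1.16% (31 of 2662) when other symbols were allowed on the bait, and 0.154% (1 of 651) without baits with an HG name. The 3 calls were of MIR1179, at 2.78 Mb, and MIR137HG, the host transcript of a neuronal microRNA, at 1.07 and 1.08 Mb. No trans-chromosomal call was made, and 0 of 735 calls allows a share of up to 0.408%. At least 1 such call was made by 0.273% of all baits. In mESCs, calls over 1 Mb or trans-chromosomal were 53 of 1282 (4.13%, interval 3.17 to 5.37) beside 3.94% of other calls, on 17 baits (8.29%, interval 5.24 to 12.9) where 8.5% of all baits had any. Mir196b, Mir375 and Mir196a-2 made 27 of them. Over the 168 baits with no coding start the share was 2.51% (interval 1.67 to 3.78).

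Among the remaining distant calls in mESCs, Mir124a-1, of the neuronal miR-124 family, reached 3 fragments in Gata4 at 1.32 to 1.34 Mb with scores from 5.65 to 9.97. Mir483, within Igf2, reached 2 fragments at 5.33 and 5.34 Mb, one of them in Ebf3, with scores of 8.29 and 8.16. Mir1247 on chromosome 12 had 4 calls at 1.13 to 1.23 Mb, of which that to Gm266 scored 11.84. The 6 trans-chromosomal calls stood on 5 baits (2.44%, interval 1.05 to 5.58), where 2.02% of all baits had any, and the calls of Mir680-3 and Mir135a-2 had a listed read number of 3 each.

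A call is bait-to-bait when its other end is a baited fragment too. Such a pair can be listed from both ends and then counts as a call of each bait. Of bait-to-bait calls, this held for 21.3% from microRNA baits and 31.2% from other baits in GM12878, and for 42.7% and 41.5% in mESCs. In GM12878, 225 of 735 microRNA calls were bait-to-bait (30.6%, interval 27.4 to 34), beside 29.4% of other calls, and in mESCs 377 of 1282 (29.4%, interval 27 to 32), beside 36.4% (interval 36.1 to 36.7) and 27.7% (interval 24.8 to 30.7) over the 168 baits with no coding start. At least 1 such call was made by 98 baits in GM12878 (55.7%, interval 48.3 to 62.8) and by 107 in mESCs (52.2%, interval 45.4 to 58.9), where 61.3% and 68.2% of all baits did. Every call was bait-to-bait for 53 baits in GM12878 (30.1%, interval 23.8 to 37.3), beside 28.6% of all baits, and for 23 in mESCs (11.2%, interval 7.59 to 16.3), beside 23.9%. In the other direction, calls reached 85 of 189 listed microRNA fragments in GM12878, 165 times, and 117 of 211 in mESCs, 444 times. Of the fragments reached, 13 and 6 had no call of their own and are listed only because they were reached. The same shares for other baits are not given here. Of these 165 and 444 calls, 8 in GM12878 and 23 in mESCs came from microRNA baits. MIR1236, inside NELFE in the MHC region, received 19 of the 165 in GM12878.

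Where a hairpin lay in a host gene whose start was on another fragment, most baits made no call to that start. Such a call was made by 28 of 122 such baits in GM12878 (23%, interval 16.4 to 31.2) and by 20 of 97 in mESCs (20.6%, interval 13.8 to 29.7), and the same value for baits of other genes was not computed. A call to any annotated transcript start of the host counted. The distances below run from the hairpin to the outermost start of the host gene, so they are not distances of calls. The bait of miR-7-1 reached the start of HNRNPK, an RNA-binding protein gene, in both cell types, with the start 10.8 kb away in human and 10.5 kb in mouse. Those of MIR103A1 and Mir103-1 reached PANK3 and Pank3, pantothenate kinase genes, at 18.4 and 13 kb. MIR148B reached COPZ1 at 36.1 kb, MIR590 reached EIF4H at 17 kb, and Mir15b reached Smc4, the condensin gene, at 5.07 kb. The longest such distances were 567 kb, for MIR3666 and FOXP2 in GM12878, and 336 kb, for Mir23b and 2010111I01Rik in mESCs.

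Grouped by the biology of the microRNA, the B-lymphocyte list had 14 baits and 81 calls in GM12878, of which the MIR155HG baits made 39 and 21, MIR217 made 5 and each of the other 11 made 1 or 2. Its median was 2 calls, as over all microRNA baits. MIR146A, an inhibitor of NF-kB signalling, had 1 call, at 179 kb on 15 reads. In mESCs the same list had 12 baits and 88 calls, led by Mir150 with 36, Mir23b with 17 and Mir23a with 16, while Mir155 had 1. The neural and Hox list had 8 baits and 38 calls in GM12878, with a median of 4, and 18 baits and 319 calls in mESCs, with a median of 10 beside 3 over all microRNA baits. In mESCs 11 of these 18 baits had at least 10 calls, where 20% of microRNA baits and 18.9% of all baits did, and 3 of the 18 carried a coding start. Among the 11 were Mir375 (51 calls), described above as known from endocrine cells, and Mir203 (10 calls). The name of the list therefore does not cover all its members. The lists were chosen with earlier results of these data known, so the share of this list is a description and not a test.

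The list of microRNAs of pluripotent cells had 11 baits and 62 calls with a median of 3, and the only bait of it with at least 10 calls was Mir130a, with 23. Of the miR-290 cluster, Mir293 had 3 calls, Mir292 had 2 and Mir290 had 1. Mir292 and Mir290 both called the bait of Prkcc, a protein kinase C gene, with scores of 13.45 and 5.92, and Mir293 called Mir290, 4.87 kb away, on 86 reads. Mir302b, of another microRNA cluster expressed in pluripotent cells, had 9 calls, the best at 85.6 kb on 20 reads with a score of 13.67. Mir17 had a single call. In GM12878 the list had 4 baits and 18 calls, 13 of them from MIR130A.

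The let-7 family, whose members keep differentiated cells from re-entering a stem-like state, had 3 baits and 5 calls in GM12878 and 5 baits and 31 calls in mESCs. Mirlet7i made 12 of these, with 7 adjacent fragments 185 to 199 kb away in Ppm1h, a phosphatase gene, and its best call at 181 kb had a score of 15.83 on 20 reads. Muscle microRNAs had 3 baits and 7 calls in GM12878 and 5 baits and 29 calls in mESCs, where Mir133a-2 had 10. The 2 baits of the primate C19MC cluster had 1 call each in GM12878, and the 1 bait of the rodent Sfmbt2 cluster had 1 call in mESCs.

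The imprinted DLK1-DIO3 region, where many hairpins lie in long noncoding transcripts of the maternal allele, had mostly bait-to-bait calls. In GM12878, 19 of its 22 calls on 6 baits reached another bait, and in mESCs 29 of 48 on 10 baits did, where 30.6% and 29.4% of all microRNA calls and 29.4% and 36.4% of other calls were bait-to-bait. MIR370 and MIR495 both reached the bait of DIO3, a deiodinase gene, at 655 and 529.8 kb. In mESCs Mir1247 had 11 calls, including those to Dlk1 at 823 kb (score 7.86), Mir154 at 538 kb and Mir341 at 664 kb, and its fragment carries the start of Dio3. Calls that joined microRNA fragments to each other numbered 8 in GM12878 and 23 in mESCs. The strongest in mESCs joined Mir382 to Mir667, 9.77 kb apart on 164 reads with a score of 10.64, and the strongest in GM12878 joined MIR891B to MIR892B on the X chromosome, 5.14 kb apart on 23 reads with a score of 11.62. All 31 were listed from 1 end only, with the other fragment of the pair not listed as their bait.

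MicroRNAs with a shared seed had like numbers of calls in some groups and unlike numbers in others. In mESCs the miR-196 baits had 70, 55 and 15, and the let-7 baits from 2 to 12. The miR-23 baits had 17 and 16 in mESCs, and 1 and 2 in GM12878. In GM12878 the miR-193 baits had 38 and 8, the miR-148 baits 13 and 2, and the miR-26 baits 10 and 1. The seed is a stretch of the mature strand and not of the sequence at the start.

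For 38 microRNA symbols, such a bait with a call was listed in both cell types, matched by symbol. MIR193B (38 calls in GM12878 and 6 in mESCs), MIR148B (13 and 3) and MIR342 (15 and 8) had more calls in GM12878, and MIR196A2 (4 and 70), MIR296 (1 and 21), MIR23B (1 and 17) and MIR23A (2 and 16) had more in mESCs. The mouse fragment of Mir196a-2 carries the start of Hoxc9, and the human fragment of MIR196A2 carries no coding start. In all, 10 symbols had more calls in GM12878, 19 had more in mESCs and 9 had equal numbers, and the medians were 2 and 4. Over all baits the mESC list also held more calls, 101841 beside 92929 in GM12878. These counts are not given here for matched baits of other genes, so they are not a result about microRNA baits alone. At least 10 calls in both were made for MIR7-1 (15 and 10) and MIR130A (13 and 23). Restriction sites, capture designs and depth differ between the genomes, and their part in these differences was not tested.

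A partner could be shared only where the baits of both species reached a coding start, which many of the 38 matched symbols did not. No such count over matched baits of other genes is given here. The same protein-coding partner, by symbol, was called in both species for 6 of the 38. They were HNRNPK and RMI1 for MIR7-1, SSRP1, SERPING1, UBE2L6 and RTN4RL2 for MIR130A, NFE2, an erythroid transcription factor gene, for MIR148B, HOXC8, HOXC11 and GPR84 for MIR196A2, the mitochondrial ribosome genes MRPS11 and MRPL46 for MIR7-2, and the kinase gene CSNK1A1 for MIR145. The partner of MIR7-2 lay 144 kb away in human and 105 kb in mouse. MIR193B is not among these, although 3 of its calls overlapped ERCC4 in GM12878 and 4 of the 6 calls of Mir193b overlapped Ercc4 in mESCs, with scores up to 11.75, since the mouse fragments carried no coding start.

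**Figure D4:**
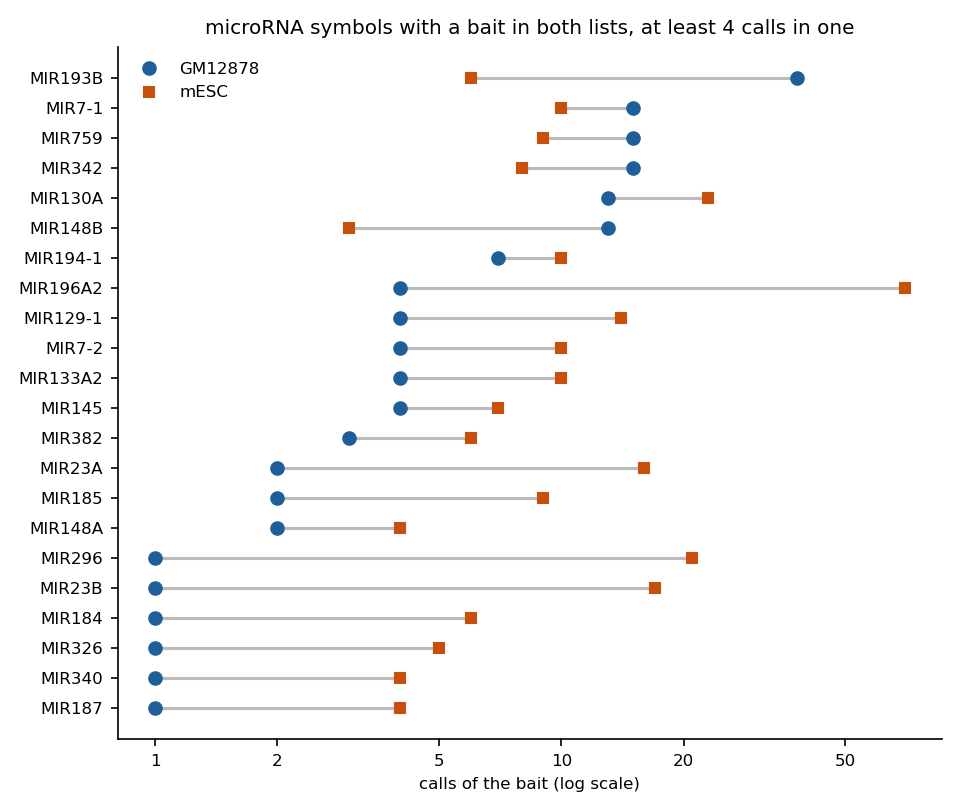
Calls per bait (horizontal, log scale) in GM12878 (circles) and mESCs (squares) for microRNA symbols with a bait in both lists and at least 4 calls in one of them. MIR193B had 38 and 6 calls, MIR130A 13 and 23, and MIR196A2 4 and 70.

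The mESC calls were set beside the Hi-C library, which was not enriched for promoters. A call counted as within a Hi-C bin pair when both fragment midpoints lay in the bins of a pair with an FDR under 0.05, using bins of 25 kb below 1 Mb and of 1 Mb above. Of microRNA calls under 1 Mb, 232 of 1229 did (18.9%, interval 16.8 to 21.2), beside 11118 of 96597 other calls (11.5%, interval 11.3 to 11.7). The share rose with score in both groups. It was 12.2% at scores from 5 to 10, 38.9% from 10 to 20 and 78.6% at 20 or more (33 of 42 calls), beside 8.34%, 22.9% and 59.7%. Of the 42 calls at 20 or more, 34 came from baits with a coding start, and without those baits the shares were 10.2%, 31.4% and 62.5% (5 of 8, interval 30.6 to 86.3). By distance, it was 26.7% beside 14.1% under 100 kb, 12.3% beside 9.91% from 100 to 300 kb, and 8.88% beside 9.34% from 300 kb to 1 Mb, and over the baits with no coding start it was 18.1%, 11.9% and 4.83%.

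Single baits weighed on this share. Mir196a-2 had 38 of its 64 calls under 1 Mb in a Hi-C bin pair and Mir196b 35 of 41, and Mir375 had 18 of 44. The share was 16.7% without Mir196a-2 (interval 14.6 to 18.9). Over the 168 baits with no coding start it was 13.7% (interval 11.6 to 16.2), and over the 37 with one 30.6% (interval 26.1 to 35.4). Mir130a and Mir1936, with 23 calls each, had none in a Hi-C bin pair. Among calls over 1 Mb or trans-chromosomal, 26 of 53 did (49.1%, interval 36.1 to 62.1), beside 57.3% of other calls. The calls of Mir196b near Vax2 lay in a pair of 1-Mb bins with 423 read pairs where HOMER expected 117, those of Mir196a-2 near Wnt10b in one with 960 where 361 were expected, and the trans-chromosomal calls of Mir196a-2 to Hoxb in one with 122 where 24.9 were expected. The call of Mir877 to chromosome 15 lay in none.

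**Figure D5:**
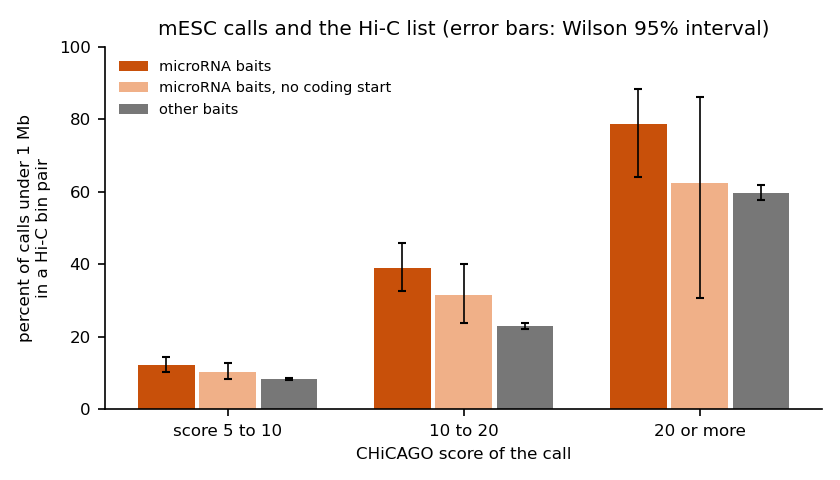
Percentage of mESC calls under 1 Mb that lay within a significant Hi-C bin pair (vertical) by class of score (horizontal) for microRNA and other baits, with Wilson 95% intervals as error bars. At scores of 20 or more the shares were 78.6% and 59.7%.

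Scores of at least 20 were held by 10 of the 205 mESC baits (4.88%, interval 2.67 to 8.75), beside 7.35% of all baits, and by 3.9% of their calls (interval 2.97 to 5.1), beside 2.83% of other calls (interval 2.73 to 2.94). Over calls, the baits with a coding start on the fragment reached 10.3% (interval 7.73 to 13.7), and the 168 without one 0.914% (8 of 875, interval 0.464 to 1.79), which is below the 2.83% of other calls. Adjacent fragments were often called together, and 30.7% of the GM12878 microRNA calls (interval 27.5 to 34.2) and 41.1% of those in mESCs (interval 38.5 to 43.9) adjoined another call of the same bait, beside 38.4% and 36.2% of other calls. Neighbouring calls are thus not independent, which the intervals do not cover.

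Promoters of the genes that make, load and edit microRNAs varied widely in their calls. Of the machinery list, 20 baits had a call in GM12878, from 1 to 22 calls, and 15 in mESCs, from 1 to 18. ADAR, which edits double-stranded RNA, and TARBP2, a partner of DICER1, had 22 each in GM12878, whereas DROSHA had 1 and DICER1 had 2. In mESCs the Argonaute gene Eif2c4 had 18 calls, Adar 14, Dicer1 5 and Dgcr8 2. One call of these baits, from DGCR8 in GM12878, reached a fragment named for a microRNA alone.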

How the data were processed

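Promoter CHi-C calls of 5 samples (GM12878, 3 replicates, and mESC, 2) and 1 mESC Hi-C library were analysed. Per the paper's methods, the authors mapped reads to hg19 or mm9 with HiCUP, called interactions with CHiCAGO on all replicates of a cell type and listed calls with a CHiCAGO score of at least 5. The deposited read number of a call, treated here as a score, was combined by the authors over replicates with size factors as weights and rounded (a sum in the main methods, an average in the supplement), so it is not a raw count and its scale per replicate is not settled. For Hi-C, the authors deposited a count of read pairs per bin pair, the expected signal and an adjusted p-value from HOMER. Bin pairs were used here at an FDR below 0.05, which is the p-value after adjustment. The submitters' processing notes name Bowtie 1.1.0 and HOMER 4.7. A further 12 columns of Hi-C values were not used. The total depth per replicate is not in the lists, so precision follows from the number of calls.

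Baits were chosen by name as stated. The members, gene lists and comparisons were chosen with earlier results of these data known. Distances of calls run between fragment midpoints, and those of host gene starts from the hairpin to the gene start. Coding starts and host genes came from GENCODE annotation of hg19 and mm9, and all member fragments read were bounded by HindIII sites. Named baits are the 10 with the most calls, those with the 5 highest scores or read numbers, those with trans-chromosomal calls or calls over 10 Mb, the fixed lists, and symbols in both cell types; other baits named were singled out after their values were seen. Wilson and exact binomial 95% intervals were computed, with 3 counts as the limit for a count of 0. Scripts used Python 3.11.15, pandas 2.3.3, NumPy 2.4.6, SciPy 1.17.1 and matplotlib 3.10.9 and were tested on simulated data. Alternatives covered the score and read thresholds, the browser list, the bait rule, single baits, the distance definition and the Hi-C threshold. Some distant calls are not reported here.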

Additional observations from a re-analysis of the deposited data

How the results depend on the processing

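Of 61 values computed under alternatives, 42 stayed within the interval of the reported value and 19 did not. With a score of at least 10, calls per bait had a median of 1 in GM12878 and 2 in mESCs, the median distance was 151 and 71.7 kb, the bait-to-bait share 43% and 37.2%, the share over 1 Mb or trans-chromosomal 0% (0 of 93 calls, which allows up to 3.23%) and 7.89%, and the Hi-C share 45.7%. With at least 10 listed reads, the median distance was 139.8 kb in GM12878 and 76.2 kb in mESCs, the share over 1 Mb or trans-chromosomal 0% (0 of 588, which allows up to 0.51%) and 0.908%, and the Hi-C share 22.2%. Counting each pair once, from the browser list, gave a bait-to-bait share of 24% in mESCs. The 36.4% of other calls counts pairs from both ends and is not its match. Allowing other symbols on the bait gave 27.3% in GM12878, and changed nothing in mESCs, where a bait has 1 name. Without Mir196a-2 the Hi-C share was 16.7%. Limiting the baits to those with no coding start, an alternative chosen after seeing the data as was leaving out HG names, gave 2.51% over 1 Mb or trans-chromosomal and a Hi-C share of 13.7% in mESCs. Except where an alternative itself selects calls or baits, the causes were not tested. No paired analysis was possible because the deposited calls were made on all replicates jointly, and for the same reason no replicate could be left out. Many distant calls had listed read numbers of 3 to 5, among the lowest of the microRNA calls, and so the least support in reads.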

Other observations

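Among baits outside the lists, Mir193 in mESCs had 12 calls, and the best of them, to a fragment 207 kb away that overlaps no coding gene, had a score of 30.8 on 39 reads. Mir686, whose fragment carries a start of the proteasome gene Psmb5, had 19 calls, of which 18 were bait-to-bait, and the one to Prmt5, an arginine methyltransferase gene 102 kb away, had a score of 30.6 on 29 reads. In GM12878 the bait of MIR875 had 6 calls and reached OSR2, a developmental transcription factor gene, at 594 kb on 10 reads with a score of 19.8. MIR147B had 8 calls, with the highest score, 19.18 on 14 reads, at SQOR, a sulfide oxidation gene 204 kb away. MIR1179 and MIR7-2, with bait midpoints 4.55 kb apart, had 12 and 4 calls, and all 4 other ends of MIR7-2 were also called from MIR1179. Mir129-2 in mESCs had 11 calls and joined Alx4, a homeobox gene, at 603 kb with a score of 13.96 on 13 reads.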
